A study of Homo sapiens with 22 samples.

Results

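The 9 genes described here, GCLC, GCLM, SLC7A11, TXNRD1, SRXN1, PRDX1, NQO1, HMOX1 and OSGIN1, are known targets of the transcription factor NRF2 and were taken by gene name from a table of 60675 genes. They were selected on the measured level of GCLC, which was higher in cells treated with either of 2 deacetylase inhibitors than in untreated cells, so their values in those 2 comparisons are given as a description and not as a test. All 9 had enough counts to enter every comparison.

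NRF2, encoded by NFE2L2, is held at a low level in resting cells because KEAP1 presents it to a CUL3 and RBX1 ubiquitin ligase for degradation. Oxidants and electrophiles modify KEAP1, after which NRF2 accumulates, pairs with a small MAF protein and binds antioxidant response elements near genes for glutathione synthesis, thioredoxin recycling, detoxification and iron handling. BACH1 occupies many of the same elements as a repressor, and SQSTM1 binds KEAP1 and routes it to autophagy.

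RNA was sequenced from HT1080, a human fibrosarcoma cell line, after depletion of ribosomal RNA. Untreated HT1080 cells (WT, 4 libraries) were set beside 3 CRISPR/Cas9-edited HT1080 lines of 4 libraries each, in which a catalytic histidine of an endogenous lysine deacetylase (KDAC) had been changed to alanine: KDAC6H216A in the first catalytic domain of KDAC6, KDAC6H611A in its second, and KDAC8H143A in KDAC8. KDAC6H216A was a pool of 3 independent lines, the number of clones behind the other lines was not given in the sources used here, and KDAC8H143A also carries an unintended inserted G in an intron of KDAC8. WT cells were also treated for 2 days with 1 µM Tubastatin A, an inhibitor of KDAC6, or with 5 µM PCI-34051, an inhibitor of KDAC8 (3 libraries each). A vehicle for the WT cells was not stated, and the mutant lines received no inhibitor. Since the edits replace a residue and leave the gene in place, the transcript levels of KDAC6 and KDAC8 do not check the labels.

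Libraries differed between groups in ways other than genotype and treatment. Total expected counts ran from 5248953 to 8998474 in WT, from 6837390 to 17170473 in the mutant lines, and from 24315766 to 29862665 in the inhibitor-treated cells. Mitochondrial ribosomal RNA took 20.8% to 23.9% of counts in WT, at most 0.0259% in KDAC8H143A and at most 0.00541% in inhibitor-treated cells. KDAC6H216A replicate 1 (0.195%) and KDAC6H611A replicate 4 (0.173%) stood apart from the rest of their groups in this share, and KDAC6H611A replicate 2 had the highest share of all (37.98%). KDAC6H216A replicate 1 had the lowest value of its group for 9 of the 9 genes, and KDAC6H611A replicate 2 for 8 of 9, so calls in both lines are given with and without them. Leaving out a library where the members are lowest raises their means in that line, so calls without it are a description. The exons behind the counts of KDAC8H143A were richer in G and C (50.4% to 52.4% by library) than those in the other 18 libraries (48.7% to 49.98%). VIM, a mesenchymal marker, was at 2083 CPM or more in every library, whereas the epithelial, blood, endothelial and liver markers EPCAM, CDH1, PTPRC, CD3E, HBB, PECAM1 and ALB were at most at 0.660 CPM, and the mesenchymal marker S100A4 was at most at 3.26 CPM.

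Values are given as CPM, the usual unit for the share of a library's counts that fall on a gene, scaled by the trimmed mean of M values over all 22 libraries. Fold changes and tests came from edgeR's quasi-likelihood fit of the 2 groups compared, each scaled within that pair, so a printed fold change can differ slightly from the ratio of the printed means. A gene was called at a Benjamini-Hochberg adjusted p below 0.01 over all genes tested. The study's methods call the libraries of a group biological replicates without saying what was separate between them, so the p-values measure the spread between these libraries. In bulk RNA, a change in the share of cells that express a gene and a change in RNA per cell cannot be told apart.

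The promoter sequences of the members were searched for the core of the antioxidant response element, the sequence to which NRF2 and its small MAF partner bind. RefSeq promoter windows on GRCh38.p14, each of 250 bases before to 50 bases after an annotated start, were held for 6 of the 9 genes (7 windows, with 2 for TXNRD1); HMOX1, SLC7A11 and PRDX1 had no entry. The letters TGACNNNGC, read on either strand, were in the GCLM window and in both TXNRD1 windows. The sequences around these matches are shown from 5′ to 3′ on the strand of the gene, with the matching letters in capitals, for chr1:93909431-93909489 (GCLM, minus strand), chr12:104215655-104215713 (TXNRD1, upstream start, plus strand) and chr12:104286905-104286963 (TXNRD1, downstream start, plus strand).
GCLM: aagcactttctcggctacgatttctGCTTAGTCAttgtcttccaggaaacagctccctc
TXNRD1, upstream start: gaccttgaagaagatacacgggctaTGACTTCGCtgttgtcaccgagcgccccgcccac
TXNRD1, downstream start: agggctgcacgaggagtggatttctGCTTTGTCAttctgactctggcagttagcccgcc
The GCLM match lay at positions -34 to -26 from the RefSeq start, read on the opposite strand, and its last letter is base 93909456, the first base of the gene in the GENCODE annotation. The TXNRD1 matches lay at positions -99 to -91 on the gene strand and -102 to -94 on the opposite strand, and the upstream window held a further match across the start itself, at positions -8 to 1. The windows of GCLC, NQO1, SRXN1 and OSGIN1 did not hold these letters, which says nothing of elements outside the windows. Of all 35116 RefSeq windows 13.3% held a match, against 11 of 33 windows of 27 other NRF2 target genes, and a match is a description of the letters and not a shown binding site.

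GCLC and GCLM encode the catalytic and the modifier subunit of glutamate-cysteine ligase, the rate-limiting enzyme of glutathione synthesis, and SLC7A11 encodes the cystine importer that feeds it. GCLC lies on GRCh38 at chr6:53497341-53616970 (minus strand), GCLM at chr1:93885199-93909456 (minus strand) and SLC7A11 at chr4:138164097-138242349 (minus strand), and counts are over all their exons. GCLC was at 16.8, 16.1, 21.7 and 14.2 CPM in the 4 WT libraries, at 32.1, 31.8 and 34.3 CPM with Tubastatin A and at 42.9, 40.9 and 39.3 CPM with PCI-34051. Neither inhibitor group overlapped WT or the other. Such separation was common: 39.8% of all genes tested lay wholly above WT with Tubastatin A and 36.2% with PCI-34051. Between the inhibitors 31.6% did not overlap, and 31.7% lay wholly below WT in KDAC8H143A. These shares also stand beside the separations of the other members given below. In the mutant lines GCLC was at 22.7, 23.0, 24.7 and 22.8 CPM in KDAC6H216A, at 23.5, 20.3, 27.9 and 23.5 CPM in KDAC6H611A and at 14.7, 13.9, 13.1 and 16.6 CPM in KDAC8H143A. The order of the means was thus PCI-34051 (41.0 CPM), Tubastatin A (32.7 CPM), KDAC6H611A (23.8 CPM), KDAC6H216A (23.3 CPM), WT (17.2 CPM) and KDAC8H143A (14.6 CPM), and KDAC6H611A overlapped KDAC6H216A as WT overlapped KDAC8H143A.

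The order of the groups for GCLM was not that for GCLC. GCLM was at 26.5, 26.8, 27.2 and 24.9 CPM in WT, at 24.5, 30.7, 36.8 and 33.1 CPM in KDAC6H216A and at 18.5, 12.3, 22.1 and 16.4 CPM in KDAC6H611A. In KDAC8H143A it was at 8.43, 12.5, 9.97 and 9.15 CPM, in Tubastatin A at 53.4, 55.1 and 58.3 CPM and in PCI-34051 at 61.9, 57.6 and 57.8 CPM. All libraries of KDAC6H611A and KDAC8H143A were below WT and all inhibitor-treated libraries were above every other library, with the 2 inhibitors overlapping. Of all genes tested, 13.7% lay wholly below WT in KDAC6H611A and 31.7% in KDAC8H143A. SLC7A11 was at 110.4, 108.2, 106.7 and 98.7 CPM in WT, at 323, 343 and 339 CPM with Tubastatin A and at 384, 383 and 371 CPM with PCI-34051. It was at 82.5, 93.9, 99.7 and 93.4 CPM in KDAC6H216A, at 125.6, 103.8, 156.8 and 113.7 CPM in KDAC6H611A and at 51.4, 86.2, 58.0 and 36.2 CPM in KDAC8H143A, whose spread was the widest of the 6 groups for this gene relative to its mean of 57.9 CPM. An antisense gene, SLC7A11-AS1, held 2.28% as many counts as SLC7A11 over all libraries; whether strand was used in counting was not stated, so reads of the 2 cannot be told apart.

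TXNRD1 encodes the cytosolic thioredoxin reductase, SRXN1 the sulfiredoxin that restores over-oxidised peroxiredoxins, and PRDX1 a peroxiredoxin that reduces hydrogen peroxide. Their loci are chr12:104215779-104350307 (plus strand), chr20:646615-653200 (minus strand) and chr1:45510914-45542732 (minus strand). TXNRD1 was at 409, 432, 458 and 397 CPM in WT, at 1006, 1026 and 1008 CPM with Tubastatin A and at 1300.0, 1318 and 1192 CPM with PCI-34051. It was at 364, 601, 688 and 654 CPM in KDAC6H216A, at 379, 265, 499 and 421 CPM in KDAC6H611A and at 235, 255, 229 and 234 CPM in KDAC8H143A. Both inhibitor groups stood above every other library, KDAC8H143A stood below every other library, and KDAC6H216A replicate 1 was below WT while the other 3 libraries of its line were above it. In KDAC6H216A SRXN1 ran from 30.8 to 65.5 CPM and in KDAC6H611A from 21.0 to 41.3 CPM, both overlapping WT. It averaged 41.9 ± 4.07 CPM (SD, n = 4) in WT and ran from 80.4 to 96.7 CPM over the 6 inhibitor-treated libraries and from 21.96 to 28.6 CPM in KDAC8H143A. PRDX1 was the exception among the members: it ran from 222 to 250 CPM in WT, from 256 to 272 CPM with Tubastatin A and from 247 to 278 CPM with PCI-34051. Its spread was widest in KDAC6H216A, from 145.1 to 332 CPM, and it ran from 121.6 to 244 CPM in KDAC6H611A. Only KDAC8H143A, at 91.4 to 133.9 CPM, stood apart from WT for PRDX1 on the lower side. PRDX1 overlaps the antisense gene MMACHC, which held 6.05% as many counts.

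NQO1 encodes a quinone reductase widely used as a reporter of NRF2 activity, HMOX1 the inducible heme oxygenase, which is also under repression by BACH1, and OSGIN1 an oxidative stress-induced growth inhibitor. They lie at chr16:69706996-69726668 (minus strand), chr22:35380361-35394214 (plus strand) and chr16:83931311-83966332 (plus strand). NQO1 was at 41.4, 48.2, 56.3 and 49.4 CPM in WT, at 151.7, 167.5 and 164.1 CPM with Tubastatin A and at 198.8, 195.9 and 163.6 CPM with PCI-34051. In KDAC8H143A it was at 8.26, 15.5, 12.3 and 10.7 CPM, below every other library, whereas KDAC6H216A (36.6 to 65.5 CPM) and KDAC6H611A (29.7 to 54.3 CPM) overlapped WT. HMOX1 was at 9.51, 10.6, 12.8 and 9.55 CPM in WT, at 15.8, 15.1 and 16.5 CPM with Tubastatin A and at 21.4, 20.4 and 18.9 CPM with PCI-34051. It was at 4.38, 9.35, 10.1 and 10.5 CPM in KDAC6H216A, at 6.20, 2.35, 5.98 and 6.87 CPM in KDAC6H611A and at 9.10, 9.78, 10.3 and 9.64 CPM in KDAC8H143A. HMOX1 was thus the member with its lowest mean in KDAC6H611A, where the other members except OSGIN1, GCLC and SLC7A11 also averaged below WT but KDAC8H143A lay lower still. OSGIN1 had the lowest level of the members, with 2.28, 3.87, 1.52 and 4.34 CPM in WT, 4.35, 5.88, 6.98 and 8.15 CPM in KDAC6H611A and 9.97, 10.1 and 9.27 CPM with PCI-34051. Tubastatin A (6.00 to 6.93 CPM), KDAC8H143A (4.31 to 5.26 CPM) and KDAC6H216A (2.25 to 4.25 CPM) lay between or beside these, and every inhibitor-treated library was above WT. OSGIN1 overlaps MLYCD on the same strand, which held 215.6% as many counts, so the split of reads between these genes is uncertain.

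**Figure D1:**
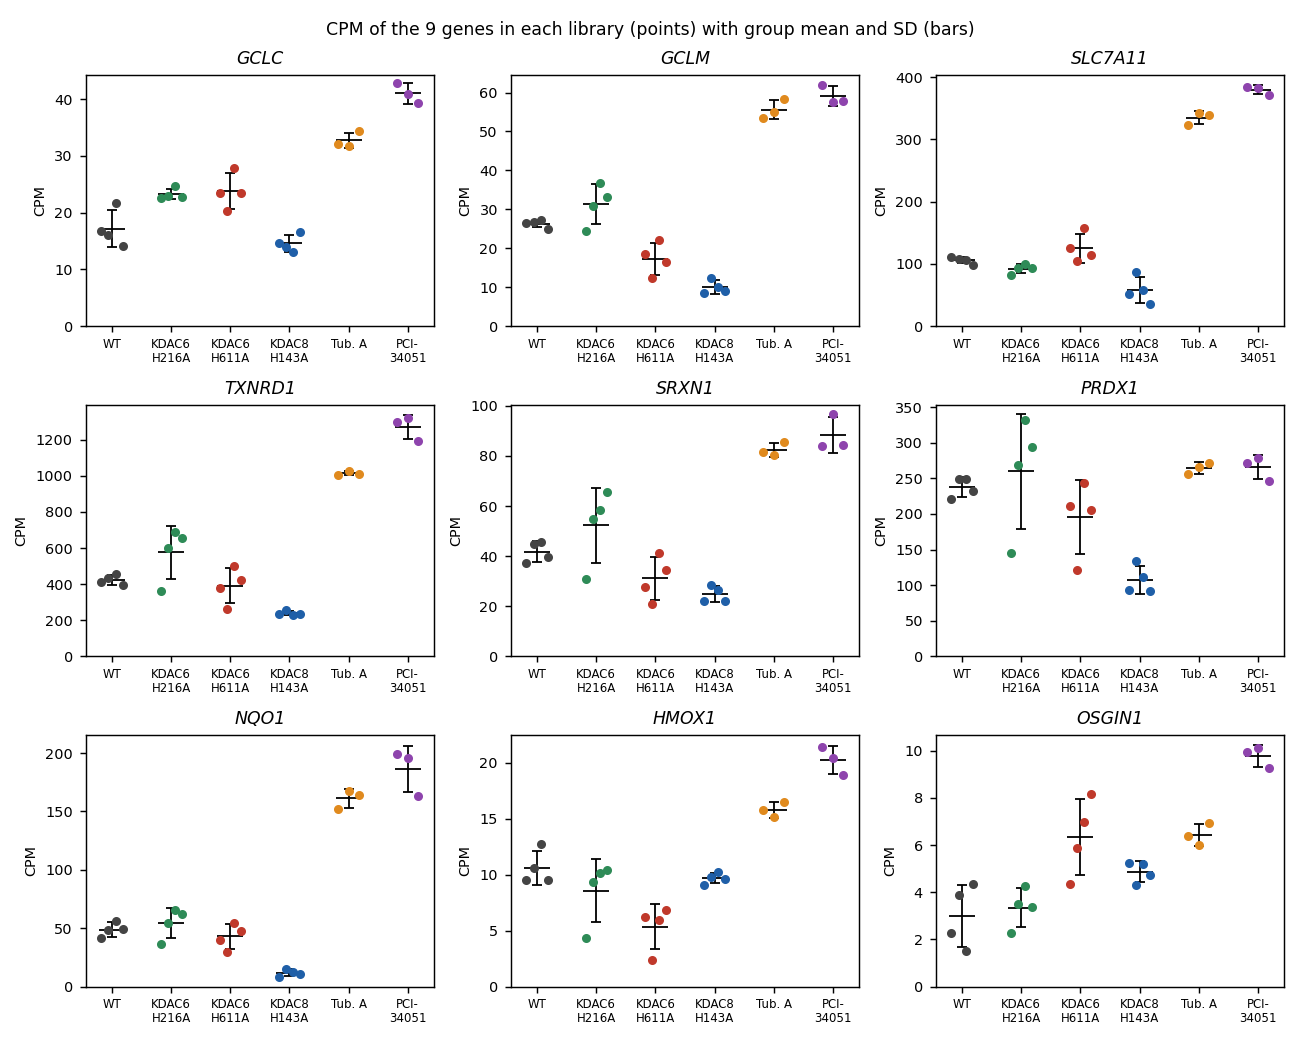
CPM of the 9 genes (y axis, from 0) in each library (points) of the 6 groups (x axis; Tub. A is Tubastatin A), with the mean and SD of each group as black bars (n = 4 for WT and the mutant lines, n = 3 for each inhibitor). The inhibitor-treated libraries are the highest for GCLC, GCLM, SLC7A11, TXNRD1, SRXN1, NQO1 and HMOX1, and the KDAC8H143A libraries are the lowest for TXNRD1 and NQO1, with NQO1 at 8.26 to 15.5 CPM there against 41.4 to 56.3 CPM in WT. Wholly above WT were 39.8% of all genes tested with Tubastatin A and 36.2% with PCI-34051, and 31.7% were wholly below it in KDAC8H143A.

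Levels of the members differed widely. Per kilobase of exon in WT, PRDX1 was at 142 CPM, TXNRD1 at 63.2, SRXN1 at 16.6, NQO1 at 16.4, SLC7A11 at 10.99, GCLM at 4.85, HMOX1 at 4.60 and OSGIN1 at 0.540 CPM per kilobase. GCLC, at 17.2 CPM over 8618 bases of exon, was next to lowest.

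With Tubastatin A, the log2 fold changes ± SE against WT were 1.60 ± 0.06 for NQO1 (3.03-fold), 1.55 ± 0.05 for SLC7A11 (2.92-fold), 1.14 ± 0.05 for TXNRD1 (2.21-fold), 0.97 ± 0.06 for GCLM, 0.97 ± 0.22 for OSGIN1, 0.85 ± 0.05 for SRXN1, 0.81 ± 0.09 for GCLC (1.75-fold) and 0.45 ± 0.10 for HMOX1. PRDX1 was at 0.04 ± 0.05, although its libraries lay above those of WT on the CPM scale without overlap, as did 39.8% of all genes. The median of the members was 0.97, against -0.003 over all genes tested. With PCI-34051 the differences were 1.82 ± 0.08 for NQO1 (3.53-fold), 1.74 ± 0.06 for SLC7A11 (3.34-fold), 1.59 ± 0.21 for OSGIN1 (3.01-fold), 1.48 ± 0.06 for TXNRD1 (2.79-fold), 1.15 ± 0.09 for GCLC (2.22-fold), 1.07 ± 0.06 for GCLM, 0.97 ± 0.07 for SRXN1, 0.82 ± 0.10 for HMOX1 and 0.06 ± 0.06 for PRDX1. The members were chosen with these comparisons in view, so nothing is read from these values, and both comparisons share the WT libraries. The mutant lines are compared with the same WT libraries below, so the values of GCLC there are not free of its selection. Since the treated libraries also differ from WT in depth and in mitochondrial ribosomal RNA, the treatment and these library properties cannot be told apart.

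**Figure D2:**
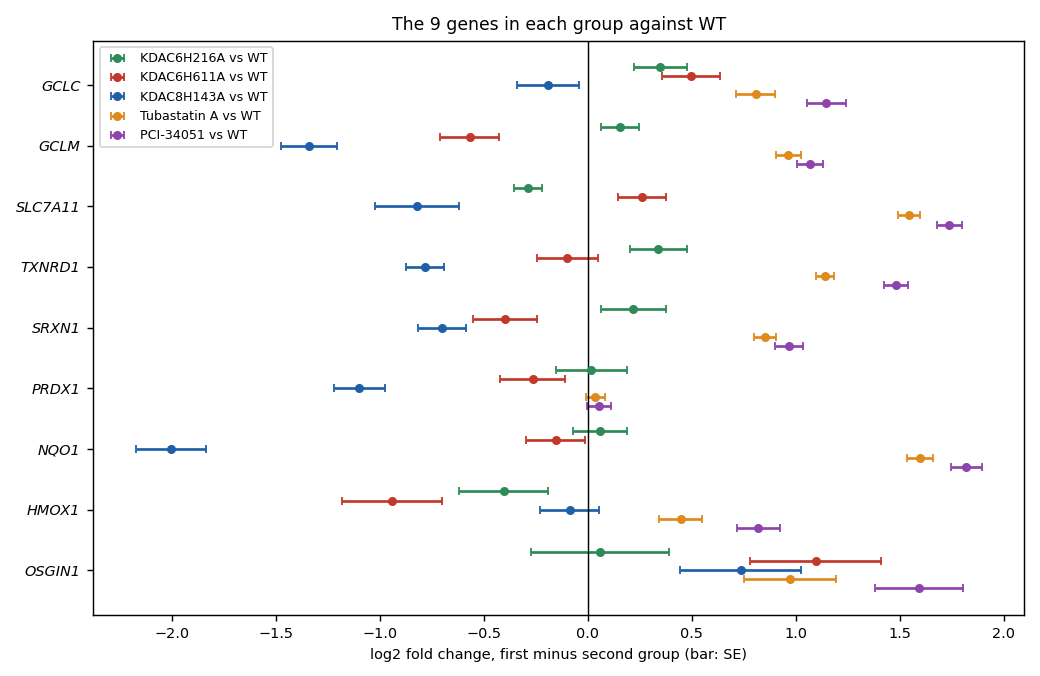
Log2 fold change against WT (x axis; points) with its SE (bars) for the 9 genes (y axis) in the 3 mutant lines and the 2 treatments. NQO1 spans the widest range, from -2.004 in KDAC8H143A to 1.82 with PCI-34051, and PRDX1 lies near 0 in all but the KDAC8H143A line (-1.10) and KDAC6H611A (-0.26).

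In KDAC6H216A none of the 9 genes passed the threshold in edgeR's test, where 0.834% of 14500 genes were called. GCLC differed from WT by 0.35 ± 0.13 on the log2 scale (adjusted p = 0.257) and was higher in 4 of 4 libraries than in any WT library, a pattern that 5.39% of all genes tested shared. TXNRD1 differed by 0.34 ± 0.14 (adjusted p = 0.310), SRXN1 by 0.22 ± 0.16, HMOX1 by -0.40 ± 0.21 and SLC7A11 by -0.29 ± 0.07 (adjusted p = 0.0583). At an unadjusted p below 0.05, 3 of the 9 would pass, GCLC and TXNRD1 as higher and SLC7A11 as lower. How many of all genes pass at that level was not counted, so nothing is read from this count. DESeq2 called 0, where it called 293 of 30912 genes. Without KDAC6H216A replicate 1, 3 members were called, TXNRD1 (0.47 ± 0.05, adjusted p = 2.1e-06) and SRXN1 (0.36 ± 0.07, adjusted p = 0.00079) as higher and SLC7A11 (-0.28 ± 0.06, adjusted p = 0.00075) as lower, while the share of all genes called became 26.0%.

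In KDAC6H611A the differences of the members had both signs and none passed the threshold in edgeR's test, where 12.3% of 14725 genes were called. HMOX1 differed by -0.94 ± 0.24 (adjusted p = 0.0142) and GCLM by -0.57 ± 0.14 (adjusted p = 0.0121), each with no overlap between its libraries and those of WT, as for 13.7% of all genes on that side. OSGIN1 differed by 1.10 ± 0.31 (adjusted p = 0.0249) and GCLC by 0.50 ± 0.14 (adjusted p = 0.0215), SLC7A11 by 0.26 ± 0.12 and SRXN1 by -0.40 ± 0.15. At an unadjusted p below 0.05, 6 of the 9 would pass, 3 in each direction. The share of all genes at that level was not counted, so nothing is read from this count. DESeq2 called 2, GCLM and HMOX1, as lower, beside 6.75% of all genes. Without KDAC6H611A replicate 2, edgeR called 3 members, GCLC (0.53 ± 0.13, adjusted p = 0.0057) as higher and GCLM (-0.47 ± 0.11, adjusted p = 0.0048) and HMOX1 (-0.76 ± 0.16, adjusted p = 0.0018) as lower, beside 19.4% of all genes. Without KDAC6H611A replicate 3, GCLM alone was called, beside 13.5% of all genes, and without KDAC6H611A replicate 4, 0 members were called, beside 10.3%. The catalytic and the modifier subunit of glutamate-cysteine ligase thus had differences of opposite sign in this line, neither past the threshold in the reported fit. Among fits that left out 1 library, both passed it only without replicate 2, which is given as a description.

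In KDAC8H143A 6 of the 9 genes were lower than in WT, beside 58.5% of all 16101 genes called, 26.9% as lower. NQO1 fell by 2.004 ± 0.17 on the log2 scale (adjusted p = 2.5e-06), to 0.249 of the WT level, and GCLM fell by 1.34 ± 0.13 (adjusted p = 7.1e-06), to 0.396 of it. PRDX1 differed by -1.10 ± 0.12 (adjusted p = 1.4e-05), SLC7A11 by -0.82 ± 0.20 (adjusted p = 0.0031), TXNRD1 by -0.78 ± 0.09 (adjusted p = 1.7e-05) and SRXN1 by -0.70 ± 0.12 (adjusted p = 0.00023). Without KDAC8H143A replicate 1, SLC7A11 lost its call. Each of these 6 was below WT in 4 of 4 libraries, with no overlap, as for 31.7% of all genes on the lower side. GCLC (-0.19 ± 0.15, adjusted p = 0.272), HMOX1 (-0.09 ± 0.14, adjusted p = 0.607) and OSGIN1 (0.74 ± 0.29, adjusted p = 0.0404) did not pass. The 95% intervals of the differences ran from -0.52 to 0.14 for GCLC and from -0.40 to 0.22 for HMOX1. The median of the members was -0.78, against 0.08 over all genes tested.

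Since the KDAC8H143A libraries hold more GC-rich sequence, the fit was repeated with smooth terms for the GC content and the length of each gene. NQO1 (-1.67 ± 0.14), PRDX1 (-0.91 ± 0.10), SRXN1 (-0.78 ± 0.11), GCLM (-0.51 ± 0.10) and TXNRD1 (-0.45 ± 0.08) were again called as lower. SLC7A11, the member poorest in GC (35.9%), went from -0.82 to 0.16 ± 0.10 (adjusted p = 0.186) and was not called. HMOX1, with 57.6% GC, went to -0.57 ± 0.14 (adjusted p = 0.0040) and was called as lower, and OSGIN1, with 61.4% GC, went to -0.05 ± 0.28. GCLC went to 0.26 ± 0.15 (adjusted p = 0.156). The count of members called stayed at 6, beside 48.1% of all genes, with HMOX1 in place of SLC7A11. Whether the shift in GC arose in the library preparation or in the cells was not tested.

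**Figure D3:**
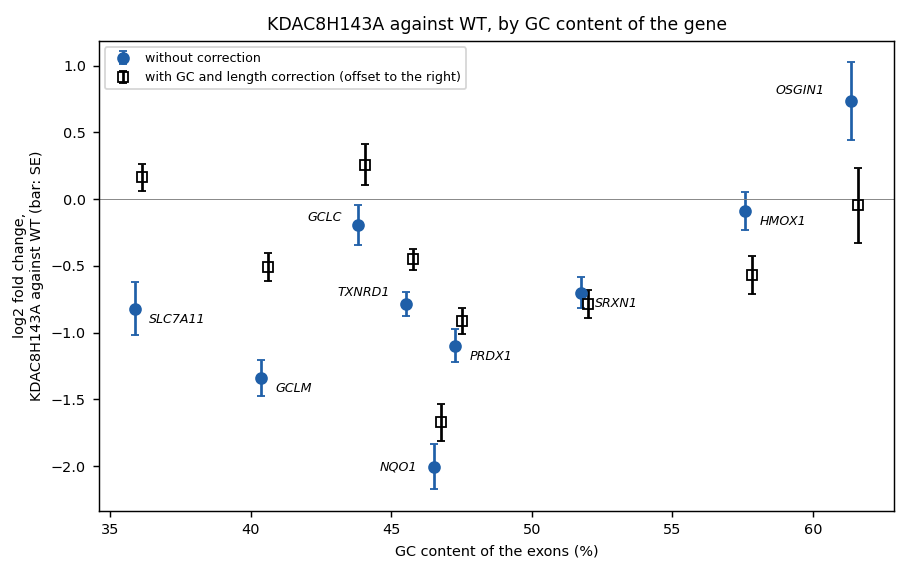
Log2 fold change of the 9 genes in KDAC8H143A against WT (y axis; bars, SE) over the GC content of their exons (x axis, %), without (filled circles) and with (open squares, offset to the right) the GC and length correction. The correction raises SLC7A11 from -0.82 to 0.16 and GCLM from -1.34 to -0.51, lowers OSGIN1 from 0.74 to -0.05, and leaves NQO1 at -1.67.

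The treated WT cells were next set beside the mutant lines of the enzyme each inhibitor is aimed at. Total counts were 24315766 or more in treated cells and 17170473 or fewer in the mutant lines. Mitochondrial ribosomal RNA took at most 0.00541% of counts in treated cells, but up to 15.07% in KDAC6H216A and 37.98% in KDAC6H611A. Inhibition, lasting loss of the catalytic residue and these library properties cannot be told apart. The paper proposes that both inhibitors share a further target besides these enzymes, which was not tested here. GCLC is given in these comparisons as a description and left out of the counts. The other 8 were chosen with the inhibitor values in view, so p-values in these comparisons and between the inhibitors give no independent support. Between PCI-34051 and KDAC8H143A, the 8 other genes were all past the threshold and higher with the inhibitor, beside 58.2% of all 18540 genes, 30.3% as higher. NQO1 was at 186 CPM with PCI-34051 against 11.7 CPM in KDAC8H143A, a log2 difference of 4.02 ± 0.20 (16.2-fold, adjusted p = 3.2e-07). SLC7A11 differed by 2.74 ± 0.24 (6.69-fold, adjusted p = 6.8e-06), GCLM by 2.59 ± 0.15 (6.01-fold, adjusted p = 6.6e-07) and TXNRD1 by 2.45 ± 0.11 (5.47-fold, adjusted p = 1.8e-07). SRXN1 (1.86 ± 0.13), GCLC (1.53 ± 0.12), PRDX1 (1.34 ± 0.15), HMOX1 (1.10 ± 0.12) and OSGIN1 (1.05 ± 0.15) followed. With the GC and length correction the 8 were still called as higher, up to 3.68 ± 0.16 for NQO1, with GCLC at 0.92 ± 0.12. PRDX1, at 266 CPM with PCI-34051 and 238 CPM in WT, was at 107.4 CPM in the mutant line.

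Between Tubastatin A and KDAC6H611A, 6 of the 8 genes other than GCLC were called and higher with the inhibitor, beside 34.9% of all 16608 genes, 17.7% as higher. These were NQO1 (1.79 ± 0.15, adjusted p = 1.0e-05), GCLM (1.56 ± 0.14, adjusted p = 1.5e-05), HMOX1 (1.42 ± 0.22, adjusted p = 0.00049), SLC7A11 (1.31 ± 0.13, adjusted p = 2.9e-05), SRXN1 (1.29 ± 0.16, adjusted p = 0.00012) and TXNRD1 (1.27 ± 0.18, adjusted p = 0.00022). GCLC was at a difference of 0.34 ± 0.10, and PRDX1 differed by 0.33 ± 0.18 (adjusted p = 0.144, 95% interval -0.06 to 0.73). OSGIN1 differed by -0.09 ± 0.20 (adjusted p = 0.710, 95% interval -0.53 to 0.34), with 6.44 CPM in the treated cells and 6.34 CPM in the line. Without KDAC6H611A replicate 2, 6 of the 8 were again called as higher, beside 43.2% of all genes.

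Between Tubastatin A and KDAC6H216A, 6 of the 8 genes other than GCLC were called and higher with the inhibitor, beside 29.2% of all 15700 genes, 17.1% as higher. SLC7A11 differed by 1.84 ± 0.07 (adjusted p = 1.1e-06), NQO1 by 1.55 ± 0.14 (adjusted p = 7.1e-05), OSGIN1 by 0.92 ± 0.19 (adjusted p = 0.0044), HMOX1 by 0.86 ± 0.21 (adjusted p = 0.0097), GCLM by 0.81 ± 0.09 (adjusted p = 0.00022), and TXNRD1 by 0.81 ± 0.16 (adjusted p = 0.0040). GCLC, as a description, was at a difference of 0.47 ± 0.07. SRXN1 (0.64 ± 0.17, adjusted p = 0.0160) and PRDX1 (0.02 ± 0.20, 95% interval -0.44 to 0.48) did not pass. Without KDAC6H216A replicate 1, the 8 were all called, 7 as higher and PRDX1 (-0.23 ± 0.06, adjusted p = 0.0014) as lower, beside 55.2% of all genes. Leaving out KDAC6H216A replicate 2 or 4 or any Tubastatin A library gave 3 calls among the 8, beside 14.6% to 19.0% of all genes, and leaving out KDAC6H216A replicate 3 gave 5, beside 20.9%.

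**Figure D4:**
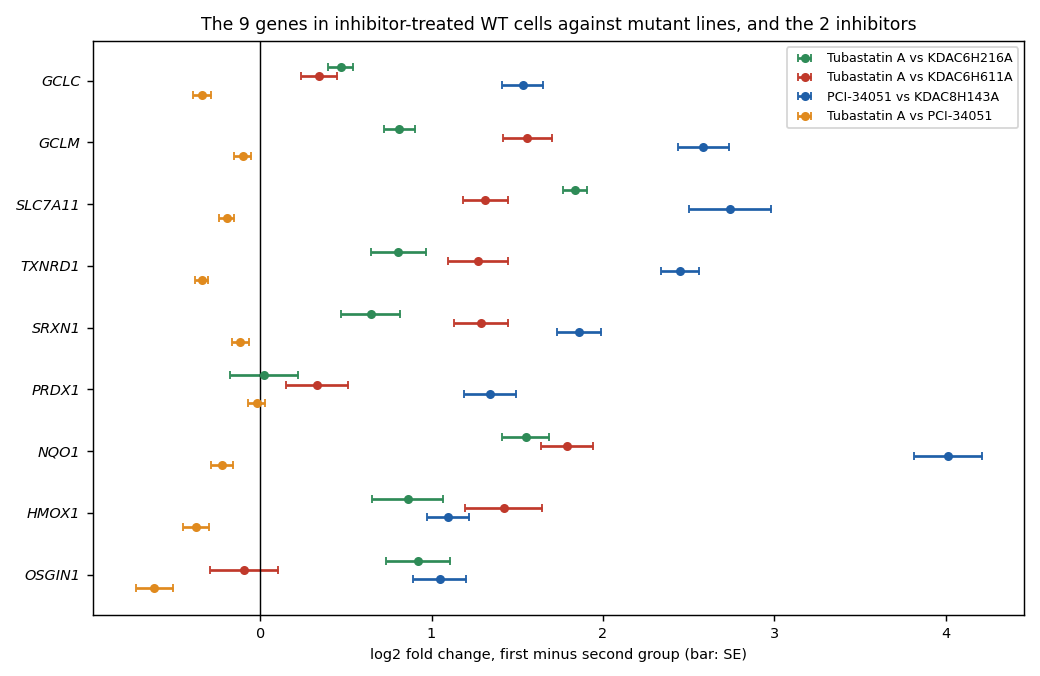
Log2 fold change (x axis; points) with its SE (bars) of the 9 genes (y axis) between treated WT cells and the mutant line of the enzyme the inhibitor is aimed at, and between the 2 inhibitors. The difference between PCI-34051 and KDAC8H143A is the largest for every gene but HMOX1, up to 4.02 for NQO1, and the 2 inhibitors differ by at most 0.62 (OSGIN1, lower with Tubastatin A).

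The inhibitors were given at different doses, 1 µM Tubastatin A and 5 µM PCI-34051, so compound and dose cannot be told apart. The fitted differences, Tubastatin A minus PCI-34051, were negative for all 9 genes, and 4 of the 8 other than GCLC passed the threshold, beside 5.65% of all 18409 genes called, 2.2% as lower. OSGIN1 differed by -0.62 ± 0.11 (adjusted p = 0.0015), HMOX1 by -0.37 ± 0.08 (adjusted p = 0.0043), TXNRD1 by -0.34 ± 0.04 (adjusted p = 3.1e-05) and SLC7A11 by -0.20 ± 0.04 (adjusted p = 0.0078), and GCLC, given as a description, by -0.34 ± 0.05. NQO1 (-0.22 ± 0.06, 95% interval -0.36 to -0.09), SRXN1 (-0.12 ± 0.05, interval -0.23 to -0.005), GCLM (-0.10 ± 0.05, interval -0.21 to 0.003) and PRDX1 (-0.02 ± 0.05, interval -0.13 to 0.09) did not pass. Of these 8, 1 was called without Tubastatin A replicate 1 (beside 2.18% of all genes) or 2 (2.68%), 2 without Tubastatin A replicate 3 (2.15%) or PCI-34051 replicate 1 (3.24%), 4 without PCI-34051 replicate 2 (6.13%), 5 without PCI-34051 replicate 3 (4.65%), and 0 in a fit of all 6 groups together (0.0379%).

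The regulators of the pathway are transcripts here, whereas NRF2 itself is controlled mainly as a protein, which was not measured. NFE2L2 was at 62.5, 62.3, 69.2 and 62.3 CPM in WT, at 98.4, 103.0 and 104.8 CPM with Tubastatin A and at 99.7, 106.6 and 97.8 CPM with PCI-34051. It was higher by 0.56 ± 0.05 with Tubastatin A (adjusted p = 7.2e-09) and by 0.56 ± 0.05 with PCI-34051 (adjusted p = 1.0e-07) than in WT, and the inhibitors differed by -0.01 ± 0.05. It was at 53.3, 39.8, 48.6 and 48.0 CPM in KDAC6H611A, a difference of -0.41 ± 0.09 from WT (adjusted p = 0.0084). It was at 33.5, 41.2, 31.4 and 32.5 CPM in KDAC8H143A, a difference of -0.84 ± 0.11 (adjusted p = 3.5e-05), and of -0.28 ± 0.08 (adjusted p = 0.0074) with the GC and length correction. That correction took NFE2L2 in KDAC6H611A to -0.31 ± 0.09 (adjusted p = 0.0259), past the threshold no longer, and the call there was also lost without KDAC6H611A replicate 3 or 4 or without any of the 4 WT libraries, with adjusted p of 0.014 to 0.039. In KDAC6H216A, with 55.0 to 74.9 CPM, NFE2L2 differed by 0.02 ± 0.07 (adjusted p = 0.932).

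KEAP1 was at 27.7 to 41.7 CPM in WT and differed by 0.41 ± 0.08 with PCI-34051 (50.3 to 53.9 CPM, adjusted p = 0.00024) and by 0.08 ± 0.07 with Tubastatin A (41.1 to 42.6 CPM, adjusted p = 0.372). In the mutant lines it differed by 0.20 ± 0.15 in KDAC6H216A (0.31 ± 0.09, adjusted p = 0.0080, without its replicate 1), 0.23 ± 0.15 in KDAC6H611A and 0.04 ± 0.12 in KDAC8H143A without passing, but by -0.69 ± 0.13 (adjusted p = 0.00071) in KDAC8H143A with the GC and length correction. SQSTM1 was higher by 0.52 ± 0.05 with Tubastatin A (adjusted p = 5.0e-08) and by 1.07 ± 0.06 with PCI-34051 (adjusted p = 1.7e-10), from 459 CPM in WT to 712 and 1035 CPM. BACH1 was lower, by differences of -0.32 ± 0.05 (adjusted p = 1.0e-05) and -0.23 ± 0.05 (adjusted p = 0.00069), but with scaling by total count alone these became 0.04 ± 0.05 and 0.16 ± 0.05.

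Of the 11 regulators, 5 were higher and 3 lower with Tubastatin A, beside 57.9% of all 15246 genes tested that were called (29.3% as higher), and 6 were higher and 1 lower with PCI-34051, beside 51.1% of all 15346 (25.5% as higher). With Tubastatin A, NFE2L1 (0.50 ± 0.05), RBX1 (0.29 ± 0.07) and CUL3 (0.19 ± 0.05) were also higher, and MAFF (-0.36 ± 0.08) and MAFG (-0.23 ± 0.06) lower, though CUL3 went to -0.04 with the GC and length correction and MAFG to 0.13 with scaling by total count alone, and the calls of CUL3 and MAFG were lost without WT replicate 4 or without Tubastatin A replicate 2 (MAFG also without replicate 1). With PCI-34051, NFE2L1 (0.57 ± 0.06), MAFK (0.49 ± 0.06) and CUL3 (0.28 ± 0.06) were also higher. In KDAC6H611A edgeR called 3, beside 12.3% of all genes, each as lower: MAFF (-1.08 ± 0.12, 11.2 against 24.0 CPM), CUL3 (-0.54 ± 0.09) and NFE2L2. SQSTM1 differed there by 0.59 ± 0.15 (adjusted p = 0.0130), and by 0.71 ± 0.09 (adjusted p = 2.4e-05) without KDAC6H611A replicate 2, where 4 of the 11 were called, SQSTM1 as higher and 3 as lower, beside 19.4%. In KDAC8H143A 3 were higher, the small MAF genes MAFK (1.73 ± 0.22, 95.9 against 29.8 CPM), MAFF (1.03 ± 0.18) and MAFG (0.87 ± 0.10), and 3 lower, CUL3 (-0.94 ± 0.10), RBX1 (-0.94 ± 0.26) and NFE2L2, beside 58.5% of all genes. RBX1 lost its call without KDAC8H143A replicate 1 or 3 or without any of the WT libraries. With the GC and length correction MAFK (0.64 ± 0.11) and MAFG (0.33 ± 0.09) were still called there, whereas MAFF (0.29 ± 0.12), CUL3 (-0.02 ± 0.11) and RBX1 (-0.48 ± 0.22) were not. BACH1, named here after its values were seen, went from -0.30 ± 0.12 (adjusted p = 0.0406) to 0.49 ± 0.08 (adjusted p = 0.00014) and was called as higher, and NFE2L1 from -0.08 ± 0.12 to -0.49 ± 0.12 (adjusted p = 0.0045) and was called as lower. In KDAC6H216A edgeR and DESeq2 called 0 of the 11, beside 0.834% of all genes in edgeR. At an unadjusted p below 0.05, 3 would pass, but the share of all genes there was not counted. Without its replicate 1, 5 were called beside 26.0% of all genes, CUL3 (0.24 ± 0.06), KEAP1, MAFF (0.30 ± 0.08) and RBX1 (0.35 ± 0.08) as higher and BACH1 (-0.30 ± 0.06) as lower.

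A list of 38 other known NRF2 targets, none of them a member, was read beside the 9. This list was chosen with earlier results of these data known, as were the other gene lists. Its counts and p-values therefore give no independent support. With Tubastatin A, 24 of the 33 that could be tested were higher and 2 lower, beside the 57.9% of all genes called, with a median log2 fold change of 0.49 against -0.003 over all genes. With PCI-34051, 21 of 33 were higher and 1 lower, beside 51.1%, with a median of 0.67 against -0.007. ABCC3, an exporter of glucuronide and glutathione conjugates, rose from 10.2 ± 1.25 CPM in WT to 56.1 ± 1.91 CPM with Tubastatin A (5.08-fold, adjusted p = 6.2e-15) and to 83.9 ± 4.33 CPM with PCI-34051 (7.68-fold, adjusted p = 1.0e-14). The aldo-keto reductases AKR1C2 and AKR1C3 were at 1.83 and 8.41 CPM with Tubastatin A, at 2.03 and 10.6 CPM with PCI-34051, and at 0.26 and 1.65 CPM in WT. These genes belong to a family of similar sequences, so reads may be split between related genes. On average AKR1C2 in WT lies at or below what 3 counts give in these libraries (0.374 to 0.621 CPM). AKR1C2 could be tested only through its level in the treated libraries, so its rise is a description. The counts of 24 and 21 higher include it. ABCC5, another conjugate exporter, was lower in both treatments (-0.28 ± 0.07, adjusted p = 0.0020, and -0.41 ± 0.08, adjusted p = 0.00023), as was PGD, of the pentose phosphate pathway, with Tubastatin A (-0.17 ± 0.05, adjusted p = 0.0050). With scaling by total count alone ABCC5 with Tubastatin A went to 0.07 and PGD to 0.19, and leaving out Tubastatin A replicate 3 took the call from both, as any of 5 other libraries did for PGD.

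In KDAC8H143A 14 of the 30 other targets tested were lower and 4 higher, beside 58.5% of all genes called, with a median of -0.43 against 0.08 over all genes. With the GC and length correction 17 were lower and 3 higher, beside 48.1%. MGST1, a membrane glutathione transferase, was at 1.34 to 3.92 CPM against 23.9 to 28.5 CPM in WT, a fall to 0.0943 of that level (adjusted p = 1.3e-06). ME1, the cytosolic malic enzyme that makes NADPH, fell to 0.292 (adjusted p = 2.5e-05) and the glutathione transferase GSTM3 to 0.301 (adjusted p = 2.9e-06) of the WT level. The 3 with the largest rise were ABCC3 (2.93-fold, adjusted p = 7.0e-06), ABCC5 (2.19-fold, adjusted p = 8.0e-06) and TRIM16 (1.48-fold, adjusted p = 0.00084). The values of these named genes are without the GC and length correction. In that uncorrected fit ABCC3 was therefore higher than WT both in this line, where 6 members were lower, and in the treated cells.

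In KDAC6H611A 4 of 30 other targets were higher and 1 lower, beside 12.3% of all genes. ABCC3 rose 2.04-fold (adjusted p = 0.00057), MGST1 1.92-fold (adjusted p = 0.00027) and GSTM3 1.57-fold (adjusted p = 0.0017, and 0.011 without WT replicate 2), while FECH, which inserts iron into protoporphyrin to form heme, was at 0.438 of the WT level (adjusted p = 0.00059). MGST1 and GSTM3 thus rose in KDAC6H611A and fell in KDAC8H143A. Without its replicate 2 the count was 13 of 32, 10 higher and 3 lower, beside 19.4% of all genes, and without WT replicate 2 it was 3 of 33, beside 7.5%. In KDAC6H216A edgeR and DESeq2 called 0 of 32, beside 0.834% of all genes in edgeR. At an unadjusted p below 0.05, 5 would pass, but the share of all genes there was not counted. Without KDAC6H216A replicate 1 edgeR called 5, each of them higher, beside 26.0% of all genes.

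**Figure D5:**
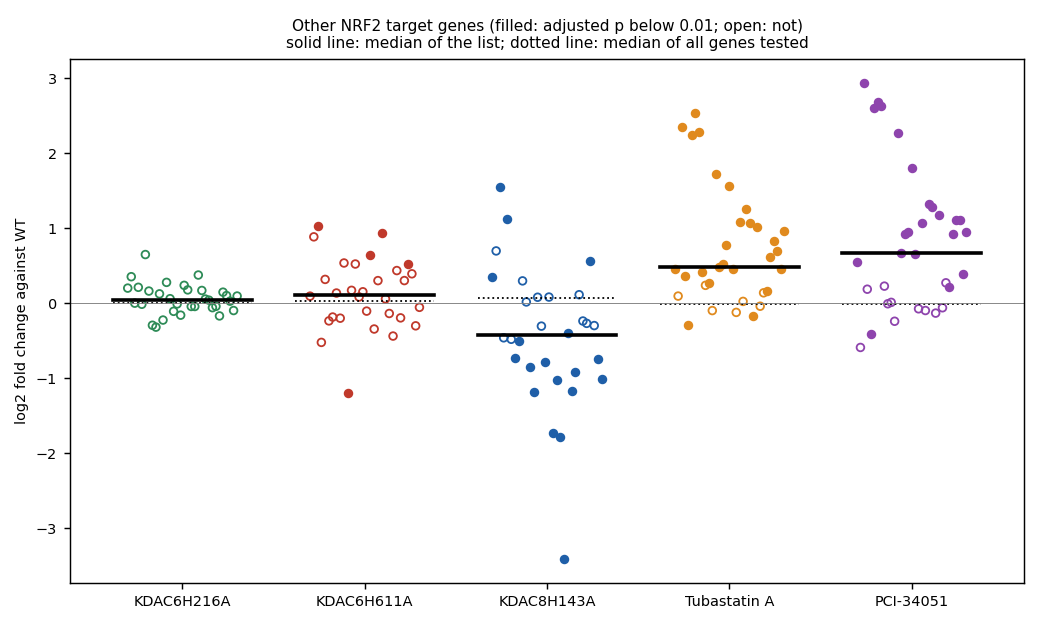
Log2 fold change against WT (y axis) of the other NRF2 targets that could be tested (points, in alphabetical order within each group on the x axis), filled where the adjusted p was below 0.01. The solid line is the median of the list and the dotted line that of all genes tested: the list lies at 0.49 and 0.67 with the inhibitors and at -0.43 in KDAC8H143A.

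A second list held 27 antioxidant genes that are not classical NRF2 targets, such as superoxide dismutases, catalase, other peroxiredoxins, glutaredoxins and sestrins. Of the 25 that could be tested, 9 were higher and 5 lower with Tubastatin A (median 0.0003) and 7 higher and 4 lower with PCI-34051 (median -0.05), beside 57.9% and 51.1% of all genes. CAT, catalase, rose from 16.9 ± 2.87 CPM in WT to 48.1 ± 1.23 CPM with Tubastatin A (2.58-fold, adjusted p = 1.5e-11) and to 49.9 ± 2.76 CPM with PCI-34051 (2.71-fold, adjusted p = 1.5e-10). TXNRD2, the mitochondrial counterpart of TXNRD1, was lower in both, at 0.511 (adjusted p = 4.5e-11) and 0.475 (adjusted p = 8.2e-10) of the WT level. In KDAC8H143A TXNRD2 was 2.11-fold higher (adjusted p = 0.00015), where TXNRD1 was lower, but with the GC and length correction TXNRD2 was at 0.31 ± 0.10 on the log2 scale and not called. Without the correction 11 of the 25 were lower in KDAC8H143A, SESN3 the most (0.176 of the WT level, adjusted p = 4.1e-05), and 2 higher, beside 58.5% of all genes. With the correction 13 of 24 were lower and 2 higher, beside 48.1%. The corrected median of this list was -0.51, against -0.51 for the members and -0.55 for the other NRF2 targets, so the fall was not particular to NRF2 targets. In KDAC6H611A 2 were higher, with GPX3, a secreted glutathione peroxidase, 3.82-fold up (adjusted p = 7.6e-05), and none lower, beside 12.3% of all genes, and 3 were higher without its replicate 2, beside 19.4%. In KDAC6H216A edgeR called 0 of 25, beside 0.834% of all genes, and DESeq2 called 1, SESN3, where it called 293 of 30912 genes. At an unadjusted p below 0.05, 3 would pass in edgeR, but the share of all genes there was not counted. Without its replicate 1 edgeR called 8 of the 25, 6 as higher and 2 as lower, beside 26.0% of all genes.

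The genes whose level followed that of GCLC most closely were ranked among 15636 genes by Pearson's r of log2 CPM over the 22 libraries. The leading 5 were HPCAL1 (r = 0.955), TRIM16L (0.938), TGFB2 (0.933), TPBG (0.930) and DHX40 (0.929), of which TRIM16L is on the list of other targets. Of the members, TXNRD1 ranked 49 (r = 0.904), NQO1 133 (0.883), SLC7A11 175 (0.876), GCLM 549 (0.824) and SRXN1 769 (0.803), whereas PRDX1 (0.627), OSGIN1 (0.544) and HMOX1 (0.470) ranked 3179 or lower. The libraries fall into 6 groups that differ in depth and composition, so these values describe the order of the groups and are not tests.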

How the data were processed

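Expected counts per gene were deposited for 22 libraries of rRNA-depleted total RNA, sequenced as read pairs. The authors trimmed reads with Trimmomatic 0.39, aligned them with Bowtie2 2.4.5 to GRCh38 and estimated counts with RSEM 1.3.3; their own tests used DESeq2 1.38.2. These estimated counts, divided between genes that share reads, are not normalized. The annotation release and the use of strand are not given in the sources used here.

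Counts were rounded to whole numbers and tested over the whole table with edgeR 4.0.16 in R 4.3.3 (trimmed mean of M values, low counts removed by filterByExpr, quasi-likelihood test of the 2 groups compared, Benjamini-Hochberg adjustment, threshold 0.01). Intervals are 95% intervals from that fit. The GC and length correction used smooth fits (mgcv 1.9.3). Other settings were DESeq2 1.42.0, other normalizations and filters, 1 fit of all 6 groups, a replicate block and leaving out each library. The scripts were tested on simulated data.

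GENCODE 44 on GRCh38 gave positions, exon length and GC content (56558 of 60675 genes matched), and 1 duplicate AKR1C3 row was dropped. Depth per library is given with the results; arm sizes of 3 and 4 limit the precision further. Genes named beside the 9 were NFE2L2 and KEAP1, any other regulator past the threshold against WT, the 3 largest changes in each direction among other targets and the largest among other antioxidant genes (where the group with the higher mean reached 1 CPM), and the 5 genes most like GCLC. The members and the gene lists were chosen with earlier results of these data known.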

Additional observations from a re-analysis of the deposited data

Results flagged for a closer look

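In groups of 4 libraries, Dixon's test compares the gap between the farthest library and its nearest neighbour with the whole range of the group. It was run in 80 groups of 4 values, for the 9 genes and the 11 regulators, and chance flags about 1 in 20 such groups. No value of the 9 genes was flagged, and groups of 3 libraries were not tested.

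KDAC6H216A replicate 1 was far below the other libraries of its line for NFE2L2 (54.96 CPM, gap over range 0.872), RBX1 (17.9 CPM, 0.834) and SQSTM1 (349.7 CPM, 0.869). That library also had 0.195% of its counts on mitochondrial ribosomal RNA, and the part of this in the lower values was not tested. WT replicate 1, the library with the fewest counts, was the lowest of its group for NFE2L1 (191.1 CPM, gap over range 0.87) and SQSTM1 (389.9 CPM, 0.862). WT replicate 3 was the highest of its group for NFE2L2, at 69.2 CPM (0.969).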

How the results depend on the processing

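Counts of members here include GCLC, and those with an inhibitor against WT only describe how the calls move and are not a test. In KDAC6H611A they were 0 by the reported test (beside 12.3% of all genes), but 4 at an adjusted p below 0.05 (23.0%). They were 4 in 1 fit of all 6 groups (11.3%) and 3 without a filter (7.72%). With DESeq2 they were 2 (6.75%), as with the GC and length correction (13.2%) and with that correction and the replicate block (9.72%). Requiring an absolute log2 fold change of at least 1 left 3 of 6 members in KDAC8H143A (beside 33.9% of all genes). It left 3 of 8 with Tubastatin A (14.9%), 0 of 5 between the inhibitors (0.185%) and 2 of 7 between Tubastatin A and KDAC6H216A (11.1%). Of other targets it left 2 of 5 in KDAC6H611A (5.01%) and 9 of 18 in KDAC8H143A (33.9%). With Tubastatin A 10 of 26 were left (14.9%) and with PCI-34051 12 of 22 (13.2%). The fit of all 6 groups gave 0 members between the inhibitors (0.0379% of all genes) and 16 other targets with Tubastatin A (24.9%). Other targets in KDAC6H611A came to 8 at an adjusted p below 0.05 (23.0%). With scaling by total count alone they came to 3 in KDAC6H611A (6.2%) and to 1 in KDAC6H216A (3.06%).

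SLC7A11 in KDAC8H143A reversed to 0.16 with the GC and length correction and 0.15 with the replicate block added, and PRDX1 between Tubastatin A and KDAC6H216A to -0.23 without KDAC6H216A replicate 1. KEAP1 in KDAC8H143A went to -0.69 with the correction, with and without the block, and BACH1 to 0.49 in both. With the correction and the block together, SQSTM1 there went to -0.33 and was called, and NFE2L2 (-0.28, adjusted p = 0.0158) lost its call. With Tubastatin A, CUL3 went to -0.045 with the correction and -0.0603 with the block added, and scaling by total count alone took ABCC5 to 0.068, BACH1 to 0.0364, MAFG to 0.13 and PGD to 0.19, and with PCI-34051 BACH1 to 0.16 and MAFG to 0.31. That scaling took the median over all genes to log2 values of 0.17 in KDAC6H216A, 0.36 in KDAC8H143A, 0.35 in Tubastatin A and 0.38 in PCI-34051, with 7910 genes higher and 1846 lower with Tubastatin A (4461 and 4360 as reported), 7893 and 1477 with PCI-34051 (3911 and 3924), 6481 and 2494 in KDAC8H143A (5093 and 4326), 358 and 85 in KDAC6H216A (31 and 90), 549 and 364 in KDAC6H611A (895 and 919), 3232 and 1283 for Tubastatin A against KDAC6H611A (2945 and 2852), 3861 and 1071 against KDAC6H216A (2686 and 1894) and 431 and 602 against PCI-34051 (636 and 405). PRDX1 was called as higher with both inhibitors under it and under the GC and length correction. The cause of these shifts was not tested.

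Leaving out 1 library gave 0 to 3 members in KDAC6H216A (beside 0.189% to 26.0% of all genes) and in KDAC6H611A (7.48% to 19.4%). It gave 5 to 6 in KDAC8H143A (48.3% to 65.2%), 8 with Tubastatin A (48.3% to 53.8%) and 8 with PCI-34051 (41.6% to 47.9%). Between the inhibitors it gave 2 to 6 (2.15% to 6.13%), and between PCI-34051 and KDAC8H143A 9 (46.9% to 65.6%). Tubastatin A against KDAC6H611A gave 6 to 7 (20.9% to 43.2%), and against KDAC6H216A 3 to 9 (14.6% to 55.2%). Other targets came to 0 to 5, 3 to 13, 14 to 22, 23 to 26 and 21 to 22 in KDAC6H216A, KDAC6H611A, KDAC8H143A, Tubastatin A and PCI-34051. The shares of all genes just given for these groups against WT stand beside these counts too. Same-numbered libraries share only a number: the correlations of their deviations ran from -0.131 to 0.269 and were not all above 0.1 in any of the 9 comparisons. With the replicate block, members called between Tubastatin A and KDAC6H216A came to 3 (beside 10.9% of all genes), and to 3 with the GC and length correction added (10.5%). No other count of members moved by more than 1.5 times under the block alone.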

Other observations

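Genes of sugar metabolism and iron storage, named here after their values were seen, belong to the list of other NRF2 targets. TKT, the transketolase of the pentose phosphate pathway, was at 356 CPM in WT, 590.5 CPM with Tubastatin A (log2 fold change 0.61 ± 0.05) and 725 CPM with PCI-34051 (0.92 ± 0.06). In KDAC8H143A TKT was at 286 CPM and differed from WT by -0.27 ± 0.10 (adjusted p = 0.0276, edgeR), and by -0.88 ± 0.10 with the GC and length correction, under which it was called.

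FTH1 and FTL encode the heavy and light chains of ferritin. FTH1 was at 250 to 290 CPM in WT, 398 to 456 CPM with Tubastatin A and 546 to 579 CPM with PCI-34051, and at 100.3 to 152.9 CPM in KDAC8H143A. FTL was at 508 to 661 CPM in WT, 1135 to 1155 CPM with Tubastatin A and 1214 to 1315 CPM with PCI-34051, and at 560 to 805 CPM in KDAC8H143A. In that line FTH1 differed from WT by -1.19 ± 0.14 and FTL by 0.08 ± 0.14, and with the GC and length correction by -1.45 ± 0.12 and -0.72 ± 0.13, both called as lower.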
